A study of Mus musculus with 32 samples.

Results

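Rn7sk, the 7SK small nuclear RNA, and 8 genes for proteins of its complex or of the kinase that it holds were followed in colonic Lgr5-EGFP+ cells with and without bethanechol (Bch). Rn7sk was chosen by a measured value, its own change with Bch in mice BR1-BR4, and the 8 protein genes, Larp7, Mepce, Hexim1, Hexim2, Cdk9, Ccnt1, Ccnt2 and Aff4, were added for their known roles and not for their values. All 9 genes are in the deposited table of 23517 genes. Rn7sk was 1.20-fold to 1.85-fold higher with Bch in the 4 mice on which it was chosen. In the 4 other mice, BR7-BR10, it was higher in 3, by up to 7.11-fold, and lower in BR9, and this change did not pass the test. Of its protein partners, Hexim2 did not pass the filter on low counts and was not tested, and none of the others passed in any comparison.

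7SK is a short nuclear RNA made by RNA polymerase III. MEPCE caps its 5′ end and LARP7 holds its 3′ end, and HEXIM1 or HEXIM2 bound to the RNA keeps the kinase P-TEFb, made of CDK9 and cyclin T1 or T2, inactive. Released P-TEFb joins scaffolds such as AFF4 in the super elongation complex and phosphorylates RNA polymerase II and pausing factors, so that paused polymerases move into the gene body.

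Crypts of Lgr5-EGFP-IRES-CreERT2 mice were taken from the proximal colon, and EGFP is made from the Lgr5 locus of stem and progenitor cells in these animals. The crypts were grown in L-WRN medium as colonoids, which are epithelial organoids. Colonoids of each mouse were left untreated or given Bch, which activates muscarinic receptors for acetylcholine, at 250 nM for 4 days, so that all groups share the reporter allele and the medium. Mice BR1, BR2, BR3 and BR4 carry the label male, a source of sorted Lgr5+ cells and the RNeasy Plus Micro kit. Mice BR7, BR8, BR9 and BR10 carry no label of sex, colonic organoids as the source and the RNeasy Mini kit, and the series as a whole counts 4 female and 4 male mice. Set, kit, source and sex therefore cannot be told apart, ages are not given in the sources used here, and every mouse is 1 culture per treatment. The samples fall into 4 groups of 4 mice, and in such bulk samples a change in cell types and a change in RNA per cell cannot be told apart.

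RNA was read as unique molecular identifiers (UMIs), counted molecules, in 2 technical replicates (TR1 and TR2) per mouse and treatment, 32 libraries in all. TR1 and TR2 come from the same cells and were added, which left 16 sums of 557512 to 4050342 UMIs. Untreated BR3, with 2361 sorted cells, was the shallowest sum, and Bch-treated BR7 was the shallowest of its set with 1066102 UMIs. All 9 genes listed as stem and crypt base markers were detected in every group, at a summed level of 1444 to 2110 CPM (UMI counts scaled by depth and, here and below, by TMM, edgeR's trimmed mean of M-values). Lgr5 had UMIs in 16 of 16 sums at 12.5 to 38.9 CPM. The list also holds Epcam and Cdh1, which are general epithelial genes, and Epcam alone was at 831 to 1351 CPM. Goblet markers summed to 1888 to 6063 CPM, colonocyte markers to 845 to 1795 CPM and enteroendocrine markers to 187 to 984 CPM. Tuft markers reached at most 11.8 CPM, immune markers 9.05 CPM, and fibroblast and endothelial markers 2.43 CPM, where 4 of the 5 immune markers and 2 of the 5 fibroblast and endothelial markers had a row in the table. Untreated, 2 of the 9 stem and crypt base markers were called lower in BR7-BR10 than in BR1-BR4 (Ascl2, log2 difference -0.51, SE 0.13, adjusted p = 0.0319, and Axin2, -0.84, SE 0.22, adjusted p = 0.0472, edgeR's test), where 1.64% of all genes tested were called in either direction. Of the 9, 7 lay below 0 and 2 above, where 47.9% of all genes tested lay above. Of the 5 colonocyte markers tested, 1 was called higher (Aqp8, 1.81, SE 0.43, adjusted p = 0.0321, edgeR's test) and 5 lay above 0, and of the 5 enteroendocrine markers tested 0 were called and 5 lay above 0. Of the 6 goblet markers tested, 0 were called and 5 lay above 0. The medians of the stem, colonocyte, enteroendocrine and goblet lists were -0.51, 0.96, 0.69 and 0.48, against -0.02 over all genes tested. The part of these lists in the values of Rn7sk and its partners was not tested.

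The sequence of Rn7sk is shown because it carries the sites that its partners use and because it bears on how the RNA could be counted. Rn7sk lies on the minus strand at chr9:78175303-78175633 of GRCm38, is 331 bases long and is annotated in GENCODE M21 as a misc_RNA with 1 transcript. Written in DNA letters from the 5′ end, with capitals for the GATC motifs and for the terminal run of T, its outer parts, at chr9:78175524-78175633 and chr9:78175303-78175402, read as follows.
Rn7sk, bases 1 to 110: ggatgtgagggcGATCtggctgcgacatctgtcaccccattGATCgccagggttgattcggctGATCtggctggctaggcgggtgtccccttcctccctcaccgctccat
Rn7sk, bases 232 to 331: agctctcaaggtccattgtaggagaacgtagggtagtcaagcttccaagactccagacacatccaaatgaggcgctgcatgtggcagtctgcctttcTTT

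The search found 3 GATC motifs, at bases 13 to 16, 42 to 45 and 64 to 67. GAUC repeats in the first hairpin of 7SK are the known landing place of HEXIM. GATC reads the same on both strands, and of the first 331 bases of 129282 annotated transcripts, 61.9% hold at least 1 copy and 7.99% hold 3 or more. The RNA ends in a run of 3 T, the kind of U-rich end that LARP7 binds. Its longest run of A is 3 bases, and 58% of its bases are G or C. The libraries were primed with oligo-dT, which pairs with runs of A, so a level given below is that of Rn7sk molecules that entered these libraries, and how it relates to all 7SK RNA in the cells was not tested.

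Reads of the cDNA were 65 bases long. Of the 267 windows of 65 bases in Rn7sk, 177 (66.3%) are also found in other annotated genes, all of them short RNAs read in the same orientation. Gm24447 shares 177 windows, Gm26315 shares 171, Gm26035 shares 77 and Gm24146 shares 15. Windows that start at base 178 or later had no exact match in another annotated transcript. Near matches and the rest of the genome were not searched. The 4 genes together received 93 UMIs in the 32 libraries, 1.41% of what Rn7sk received, and how reads matching several genes were counted is not given in the sources used here.

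**Figure D1:**
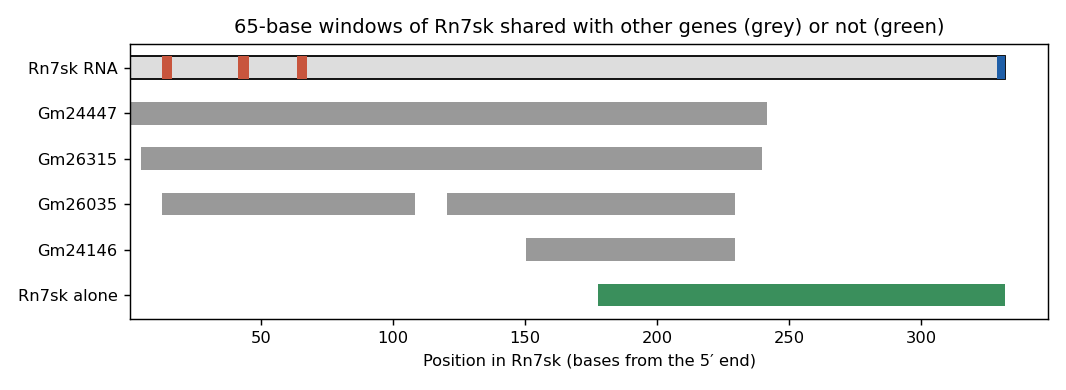
Map of Rn7sk in bases from its 5′ end, with the 3 GATC motifs in red and the terminal run of T in blue on the top bar. Grey bars are stretches covered by 65-base windows shared with Gm24447, Gm26315, Gm26035 and Gm24146. The green bar is covered by windows with no exact match in another annotated transcript, which start from base 178.

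In untreated cells, Rn7sk was at 87.0 CPM in BR1, 168 in BR2, 210 in BR3 and 207 in BR4. In the other set it was at 156 CPM in BR7, 120 in BR8, 211 in BR9 and 51.3 in BR10. The untreated sets overlapped almost fully, with means of 168 ± 57.1 CPM (SD, n = 4) in BR1-BR4 and 134 ± 66.9 CPM (SD, n = 4) in BR7-BR10. The log2 fold change between the sets was -0.32 (SE 0.49, adjusted p = 0.861, edgeR's quasi-likelihood test), with a 95% interval of 0.349-fold to 1.83-fold. Untreated BR10 was the lowest of the 16 sums.

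With Bch, Rn7sk was at 162 CPM in BR1, 275 in BR2, 329 in BR3 and 248 in BR4. All 4 mice were above their own untreated cells, by 1.85-fold, 1.63-fold, 1.57-fold and 1.20-fold, while the groups as such overlapped because untreated BR2, BR3 and BR4 lay above Bch-treated BR1. The mean was 253 ± 69.6 CPM (SD, n = 4), the fitted log2 fold change was 0.61 (SE 0.10), and this is the contrast for which Rn7sk was taken up, so that it is given as a description with no test. The background of this contrast was 2 of 9509 genes past an adjusted p of 0.05 (0.021%). Rn7sk is among them because it was chosen there, and nothing is read from it. The other was Rps24-ps3, a pseudogene of a ribosomal protein gene (log2 fold change 0.64, SE 0.12), named for its rank. Of all genes tested, 8.22% were higher in 4 of 4 mice. Without the mouse as a block the change of Rn7sk was 0.63 and 0 genes passed. With the block but without BR1 or without BR2, 0 genes passed as well, and without BR4, whose ratio was the smallest, the fitted change of Rn7sk was 0.75. Sorted cells numbered 13114 untreated and 3504 with Bch in BR1, the mouse with the highest ratio of this set. They numbered 2401 and 3000 in BR9, the mouse of the other set in which Rn7sk was lower, and nearly the same, 2361 and 3000, in BR3, in which it was 1.57-fold higher. Their part in these ratios was not tested.

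In the other set Rn7sk with Bch was at 1114 CPM in BR7, 166 in BR8, 137 in BR9 and 174 in BR10. Expressed against untreated cells of the same mouse this was 7.11-fold, 1.38-fold, 0.653-fold and 3.35-fold, so that 3 mice were higher and BR9 was lower. The value of BR7 was the highest of all 16 sums and was 6.40 times the next of its group, and the other 3 treated values lay close together. The mean was 398 ± 478 CPM (SD, n = 4), an SD larger than the mean. The log2 fold change was 1.11 (SE 0.75, adjusted p = 0.999, edgeR's quasi-likelihood test), with a 95% interval of 0.458-fold to 10.2-fold, and 0 of 9515 genes passed (0%), with 360 at an unadjusted p under 0.05 and 0 by DESeq2. Without BR7 the change was 0.52 (SE 0.55), and the means were 127 ± 80.0 CPM untreated and 159 ± 19.4 CPM with Bch (SD, n = 3). These mice did not enter the contrast that chose Rn7sk, but their values were known when it was taken up.

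The Bch change of Rn7sk in BR1-BR4, on which it was chosen, enters the difference of its change between the sets. This difference is therefore given as a description with no test. On the log2 scale it was 0.50 (SE 0.77, edgeR's fit of the interaction over 16 sums), with a 95% interval of 0.393-fold to 5.07-fold, and it was -0.11 without BR7. Per mouse, the log2 ratios ran from 0.26 to 0.89 in BR1-BR4 and from -0.62 to 2.83 in BR7-BR10.

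**Figure D2:**
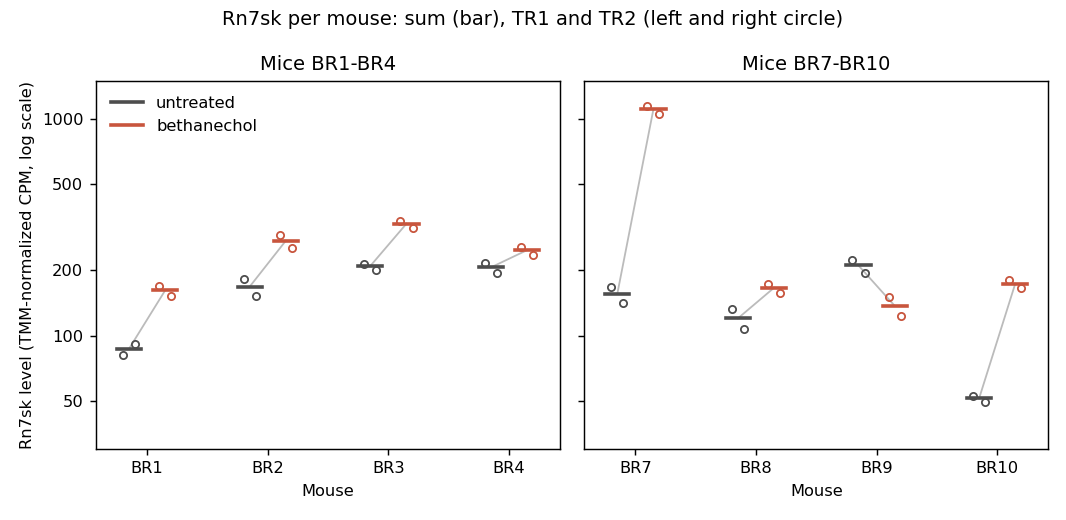
Rn7sk in TMM-normalized CPM on a log axis for each mouse, untreated (grey) and with Bch (red), with the sum as a bar, TR1 and TR2 as the left and right circle, and a grey line joining the same mouse. The line rises in all mice but BR9, Bch-treated BR7 stands at 1114 CPM, and both circles lie near every bar.

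TR1 and TR2 gave like levels of Rn7sk. In Bch-treated BR7, TR1 held 524 UMIs of Rn7sk and TR2 held 531, which is 1154 and 1058 CPM. The share of Rn7sk UMIs that fell in TR1 had a 95% exact binomial interval that covered the share of all UMIs in 16 of 16 pairs, and over the 9 genes this held in 143 of 144 pairs. The exception was Cdk9 in untreated BR4, with 110 UMIs in TR1 and 91 in TR2. Thinly counted genes could hardly fall outside, as with the 1 UMI of Hexim2 in Bch-treated BR7, whose interval ran from 0% to 97.5%. Among all genes with at least 20 UMIs, 5.99% to 10.5% per pair lay beyond the 95% limit of a chi-square for the same shares. The TR1 share of Rn7sk lay above that of all UMIs in every pair but untreated BR1, such as 49.7% against 47.5% in Bch-treated BR7. Intervals read for each pair alone do not show such a common shift, and its cause was not tested. The binomial intervals cover counting error only, and since both libraries come from the same cells, they do not bear on the spread between mice.

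Other RNAs were read beside Rn7sk, and their part in its values was not tested. Malat1, a long nuclear RNA, had log2 ratios of 0.28, 0.20, -0.09 and 0.02 in BR1, BR2, BR3 and BR4, and of 0.86, -0.52, -1.43 and 1.27 in BR7, BR8, BR9 and BR10. In BR7-BR10, where Rn7sk varied most, the mice with the highest ratios of Rn7sk, BR7 and BR10, were those with the highest ratios of Malat1, and both RNAs were lower in BR9, whereas in BR8 the directions differed. Malat1 itself did not pass the test, with log2 fold changes of 0.10 (SE 0.09, adjusted p = 0.885) in BR1-BR4 and 0.05 (SE 0.61, adjusted p = 0.999) in BR7-BR10 by edgeR's test. mt-Co1, a subunit of cytochrome oxidase encoded in the mitochondrial genome, had ratios from -0.42 in BR9 to 0.60 in BR10 and was higher with Bch in the same mice as Rn7sk, except BR8. It is named as one of the genes most like Rn7sk over these same sums, as given below. Its likeness per mouse follows from that choice, and nothing is read from it. Goblet markers summed to 4747 CPM untreated and 6063 CPM with Bch in BR7, and to 2134 and 4050 CPM in BR10. They were lower with Bch in BR8, at 3335 and 3077 CPM, and in BR9, at 3744 and 2991 CPM. In BR1-BR4, where Rn7sk was higher in each mouse, they were higher in 2 mice and lower in 2, at 2138 CPM untreated and 1888 CPM with Bch in BR1, 2672 and 2734 in BR2, 2629 and 2623 in BR3, and 2241 and 2335 in BR4. Most of each goblet sum came from Agr2, at 1174 to 4109 CPM, and Tff3, at 585 to 1775 CPM. Agr2 is also among the genes most like Rn7sk below. The listed stem and crypt base markers, with Epcam and Cdh1 among them, summed to 1444 CPM in Bch-treated BR7, the lowest of the 16 sums.

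Other short structural RNAs with at least 5 CPM were 12 in number, among them small nucleolar and small Cajal body RNAs, the RNase P RNA Rpph1 and the vault RNA Vaultrc5. With Bch, 5, 8, 10 and 9 of the 12 were higher in BR1, BR2, BR3 and BR4, and 9, 5, 1 and 12 of the 12 in BR7, BR8, BR9 and BR10. Their median log2 ratio was lowest in BR9, at -0.67, the mouse in which Rn7sk was lower, and was 0.93 in BR10 and 0.55 in BR7. It was highest in BR3, at 1.04, and lay below 0 in BR1 and BR8, in which Rn7sk was higher, at -0.14 and -0.13. The value of BR3 rests on few counts, since its untreated sum held 0 UMIs of Gm22107, 33 of Snord13 and at most 10 of each other of the 12 RNAs. None of those tested passed with Bch in either set, and the filter on low counts left out Rpph1 in BR1-BR4 and Gm23037 in BR7-BR10.

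**Figure D3:**
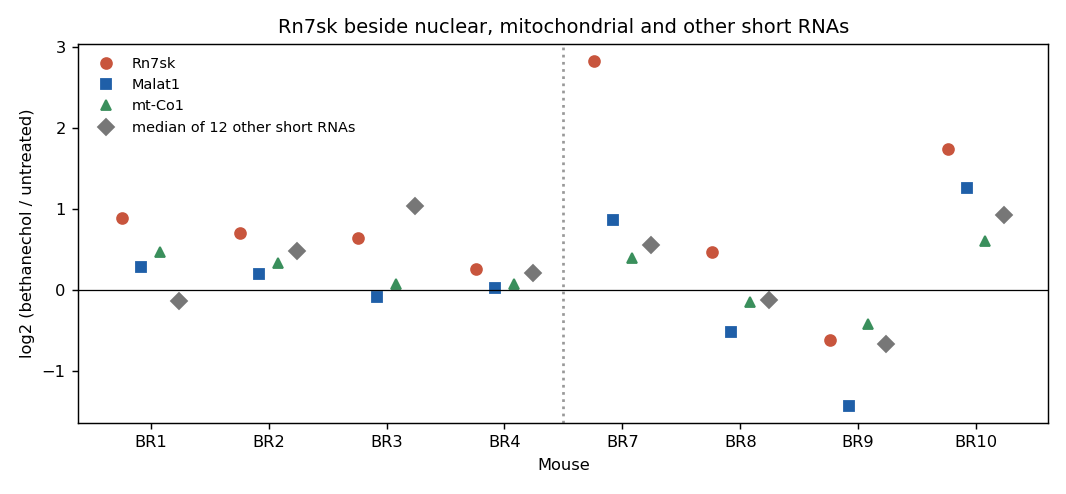
Log2 ratio of Bch-treated to untreated cells for each mouse, for Rn7sk (circles), Malat1 (squares), mt-Co1 (triangles) and the median of 12 other short RNAs (diamonds), with a dotted line between the sets. All 4 symbols lie below 0 in BR9 and above 0 in BR10, and the highest point is Rn7sk in BR7, at 2.83. mt-Co1 was picked for its likeness to Rn7sk over these same sums, and Malat1 was named after its values were seen.

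The genes whose levels ran most like Rn7sk were sought among 5145 genes with a mean of at least 20 CPM, by Pearson's r of log2 CPM over 16 sums after the mean of each set was taken off. These r are descriptions, since the sums share mice and depth. They were 0.85 for Gm2830, 0.84 for mt-Co1, 0.83 for Grsf1, an RNA-binding protein of mitochondrial RNA granules, and 0.81 for Agr2, a disulfide isomerase of goblet cells. Leaving out the sums farthest from the median, Bch-treated BR7 and untreated BR10, lowered these to 0.73, 0.72, 0.25 and 0.37, so that the likeness of Grsf1 and Agr2 rests largely on them. Malat1, named after its values were seen, had r = 0.74 with all sums and 0.72 without them. Of the partners with enough counts, Larp7 had r = -0.61 (-0.41 without them) and Cdk9 -0.02 (-0.10 without them).

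Transcripts of Mepce and Larp7, whose proteins stay on 7SK, did not pass the test in either set. Mepce, the capping enzyme of 7SK (chr5:137781906-137787655, GRCm38), had between 9 and 40 UMIs per sum. Its means were 14.9 ± 4.03 CPM untreated and 13.5 ± 3.29 CPM with Bch in BR1-BR4, and 13.5 ± 5.80 and 11.8 ± 3.53 CPM in BR7-BR10 (SD, n = 4 each). Mepce was higher with Bch in 4 of 8 mice, its groups overlapped in both sets, and its log2 fold changes were -0.15 (SE 0.29) and -0.10 (SE 0.30).

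Larp7, which guards the 3′ end of 7SK (chr3:127536714-127553349), was at 59.4, 60.7, 30.0 and 57.9 CPM in untreated BR1, BR2, BR3 and BR4. With Bch it was at 46.1, 43.2, 39.4 and 50.5 CPM in the same mice. It was thus lower with Bch in every mouse of this set but BR3, whose untreated sum held 17 UMIs of Larp7 and stood below all others of its group. In BR7, BR8, BR9 and BR10 it was at 38.8, 49.5, 52.7 and 65.6 CPM untreated and at 33.8, 50.9, 57.8 and 34.2 CPM with Bch. The groups overlapped in both sets. The log2 fold changes of Larp7 were -0.24 (SE 0.17, adjusted p = 0.806) in BR1-BR4 and -0.24 (SE 0.19, adjusted p = 0.999) in BR7-BR10 by edgeR's test, with 95% intervals of 0.670-fold to 1.07-fold and 0.648-fold to 1.10-fold.

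Hexim1, the inhibitor that joins P-TEFb to 7SK (chr11:103116231-103119725), was higher with Bch on average in BR1-BR4 and slightly lower in BR7-BR10, and neither change passed the test. In untreated BR1, BR2, BR3 and BR4 it was at 13.4, 15.8, 5.29 and 12.8 CPM, and with Bch at 23.7, 17.6, 13.6 and 12.0 CPM. In BR7, BR8, BR9 and BR10 it was at 14.2, 18.6, 14.8 and 16.2 CPM untreated and at 8.45, 23.4, 19.0 and 10.4 CPM with Bch. It was higher in 3 of 4 mice of the first set and in 2 of 4 of the second, and in BR7 and BR10, with the highest ratios of Rn7sk, Hexim1 was lower. The log2 fold changes were 0.43 (SE 0.29, adjusted p = 0.802) and -0.09 (SE 0.28, adjusted p = 0.999), and their difference of -0.52 (SE 0.41, adjusted p = 1, edgeR's interaction test) had a 95% interval of 0.395-fold to 1.23-fold. Untreated BR3 held only 3 UMIs of Hexim1.

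Hexim2, the second HEXIM gene (chr11:103132429-103139876), had 1 to 15 UMIs per sum and did not pass the filter on low counts in any comparison. Its level ran from 1.03 CPM in untreated BR4 to 4.14 CPM in untreated BR1. It was higher with Bch in 3 of 8 mice, and its change was not tested because of the filter.

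Cdk9, the kinase of P-TEFb (chr2:32705784-32713076), was the partner with the most UMIs, 106 to 435 per sum. Untreated, it was at 116, 112, 187 and 103 CPM in BR1, BR2, BR3 and BR4, and at 101, 97.6, 123 and 117 CPM in BR7, BR8, BR9 and BR10. With Bch it was at 138, 96.2, 115 and 86.4 CPM and at 118, 103, 124 and 113 CPM in the same orders. The values of BR7-BR10 lay within a narrow range whatever the treatment, and the one high value was untreated BR3, the shallowest sum. The log2 fold changes of Cdk9 were -0.21 (SE 0.13, adjusted p = 0.763) in BR1-BR4 and 0.06 (SE 0.14, adjusted p = 0.999) in BR7-BR10 by edgeR's test. The 95% intervals were 0.727-fold to 1.03-fold and 0.852-fold to 1.27-fold. In BR1-BR4 the value was -0.06 without BR3 and -0.37 without BR1, neither past the test. In BR7, where Rn7sk was at 7.11-fold, Cdk9 was at 1.16-fold.

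The cyclins were more thinly counted. Ccnt1, which encodes cyclin T1 (chr15:98538689-98570923), had 4 to 95 UMIs per sum and means of 14.6 ± 6.43 and 13.0 ± 3.23 CPM untreated and with Bch in BR1-BR4, and of 19.0 ± 4.01 and 14.2 ± 5.72 CPM in BR7-BR10 (SD, n = 4 each). It was higher with Bch in 3 of 8 mice. Its gene overlaps the antisense gene 9330020H09Rik, which had 139 UMIs in all libraries, and whether counting used the strand is not given in the sources used here. Ccnt2, which encodes cyclin T2 (chr1:127774164-127808061), had 6 to 42 UMIs per sum and means of 14.0 ± 10.3 and 9.91 ± 1.14 CPM in BR1-BR4, and of 12.7 ± 4.81 and 9.16 ± 2.09 CPM in BR7-BR10 (SD, n = 4 each). It was higher in 2 of 8 mice, and its highest value, 28.2 CPM, was again untreated BR3, with 16 UMIs. The log2 fold changes of Ccnt1 and Ccnt2 in BR7-BR10 were alike, -0.41 (SE 0.27) and -0.40 (SE 0.32), with an adjusted p of 0.999 for each by edgeR's test, and in BR1-BR4 they were -0.26 (SE 0.31) and -0.27 (SE 0.35). With a mouse of BR1-BR4 left out, Ccnt1 ran from -0.50 to -0.03.

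Aff4, the scaffold of the super elongation complex (chr11:53350833-53421830), had 6 to 78 UMIs per sum. Its means were 14.4 ± 6.39 and 15.0 ± 2.99 CPM untreated and with Bch in BR1-BR4, and 16.9 ± 1.18 and 15.6 ± 2.05 CPM in BR7-BR10 (SD, n = 4 each). Aff4 was higher with Bch in 3 of 8 mice, and its log2 fold changes were 0.04 (SE 0.29) and -0.12 (SE 0.27).

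**Figure D4:**
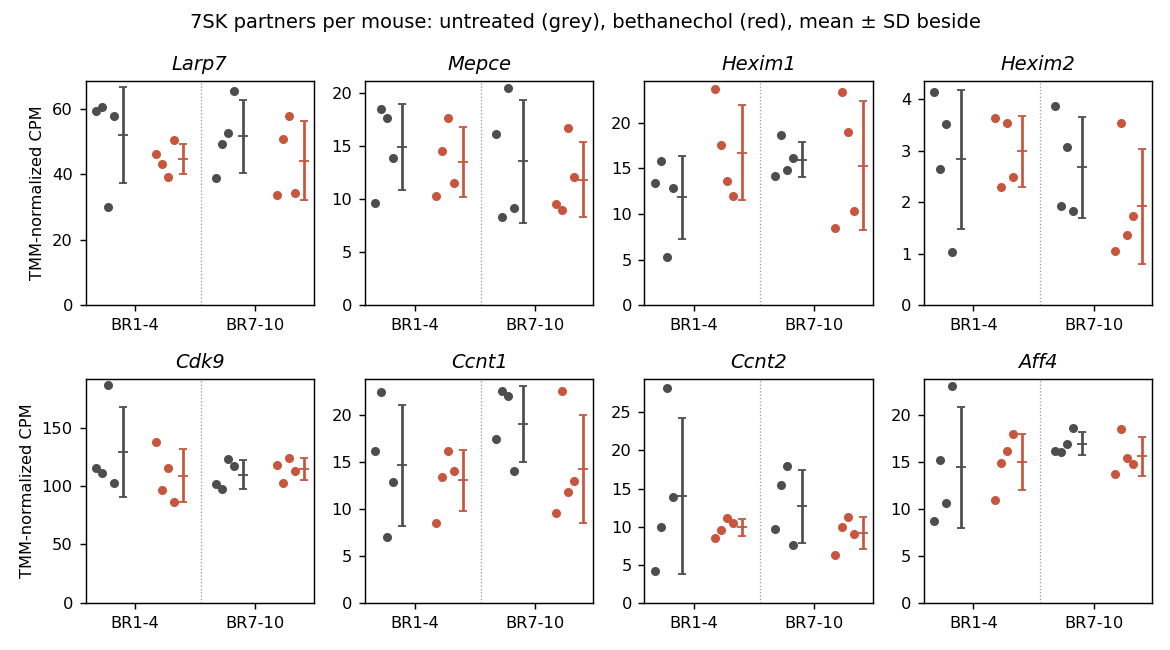
TMM-normalized CPM of the 8 partners, 1 dot per mouse, untreated (grey) and with Bch (red) in BR1-BR4 and BR7-BR10, with mean ± SD beside the dots and an axis from 0 in each panel. The groups of every partner overlap, and the high Cdk9 value of 187 CPM and the low Larp7 value of 30.0 CPM are both untreated BR3.

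Of the 8 partners, 7 passed the filter on low counts and were tested, and Rn7sk is left out of these counts with Bch because of how it was chosen. Among the 7, 2 log2 fold changes lay above 0 and 5 below in BR1-BR4, the middle one being -0.21, that of Cdk9, where 50.3% of all genes tested lay above 0. In BR7-BR10, 1 lay above and 6 below, the middle one being -0.12, that of Aff4, where 49.5% of all genes did. No partner had an unadjusted p under 0.05 in either set, against 7.72% of all genes tested in BR1-BR4 and 3.78% in BR7-BR10. No gene of the 10280 tested passed for the difference between the sets (0%). Between the untreated sets, 4 of the 8 genes with Rn7sk lay above 0 and 4 below, where 47.9% of all genes lay above 0, and none passed, where 150 of 9159 genes did (1.64%). The untreated log2 differences ran from -0.32 for Rn7sk to 0.31 for Hexim1.

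**Figure D5:**
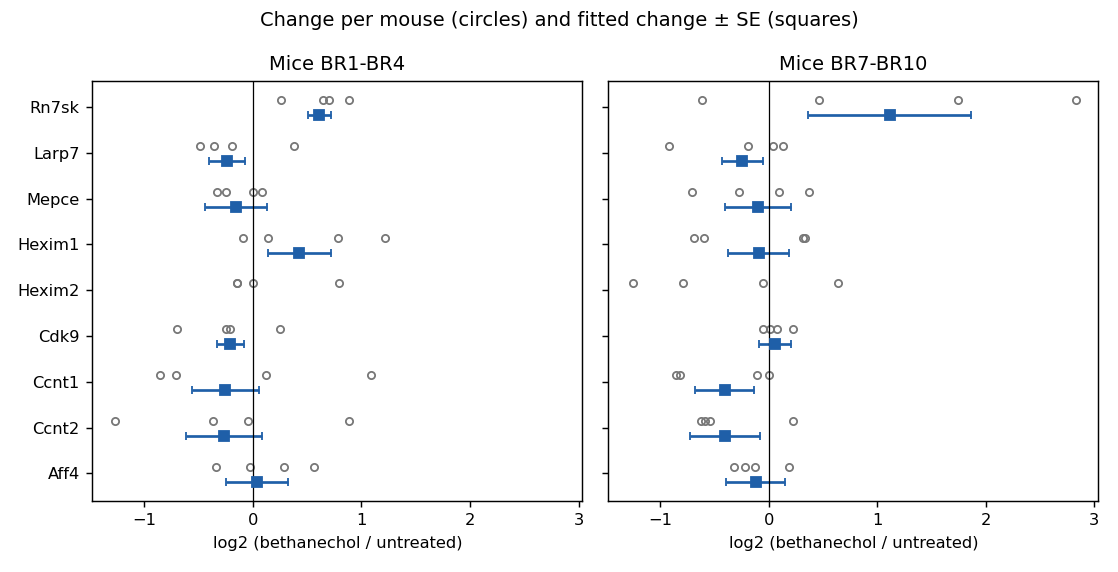
Log2 ratio of Bch-treated to untreated cells per mouse (circles) and edgeR's fitted log2 fold change ± SE (squares) for the 9 genes in both sets. The circles of Rn7sk run from 0.26 to 0.89 in BR1-BR4, the set on which it was chosen, and from -0.62 to 2.83 in BR7-BR10, and Hexim2 has no square because it did not pass the filter.

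Genes around this complex were read from lists chosen for their roles. Of the other super elongation complex genes, 5 of 9 were tested in each set and none passed, with 2 at an unadjusted p under 0.05 in BR1-BR4, both lower, and 0 in BR7-BR10 (7.72% and 3.78% of all genes tested). Mllt1, which encodes the YEATS protein ENL, and Aff1, a scaffold related to Aff4, had the smallest p in BR1-BR4. Mllt1 was at 19.5 ± 2.40 CPM untreated and 11.2 ± 2.89 CPM with Bch, and Aff1 at 14.0 ± 1.73 and 7.33 ± 2.12 CPM (SD, n = 4 each). Both were lower in 4 of 4 mice, as were 6.86% of all genes tested, with log2 fold changes of -0.81 (SE 0.28, adjusted p = 0.384) and -0.95 (SE 0.34, adjusted p = 0.399) by edgeR's test. In BR7-BR10 the mean log2 ratios per mouse were 0.02 ± 0.44 for Mllt1 and 0.30 ± 0.84 for Aff1 (SD, n = 4), and the difference between the sets did not pass for either (0.80, SE 0.41, and 1.17, SE 0.50, adjusted p = 1 for both by edgeR's interaction test). In that set the smallest p were those of Mllt3 (log2 fold change -0.42, SE 0.24, lower in 4 of 4 mice as were 5.54% of all genes) and Ell2 (0.39, SE 0.36).

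All 14 of the listed RNA-binding proteins, readers and phosphatases that bind or release 7SK or P-TEFb were tested, and none passed in either set, with 3 at an unadjusted p under 0.05 in BR1-BR4, all higher, and 0 in BR7-BR10, against 7.72% and 3.78% of all genes tested. Srsf2, a splicing factor that binds 7SK, was at 122 ± 10.4 CPM untreated and 153 ± 14.7 CPM with Bch in BR1-BR4 (SD, n = 4 each), and every mouse of the set was higher, as in 8.22% of all genes tested, the log2 fold change being 0.32 (SE 0.11, adjusted p = 0.358, edgeR's test). Rbm7, an RNA-binding protein that acts on 7SK under stress, had 0.33 (SE 0.14, adjusted p = 0.587). In BR7-BR10 the smallest p belonged to Jmjd6 (0.29, SE 0.18) and Trim28 (0.21, SE 0.17).

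None of the 6 pausing factors passed either, and Nelfcd (-0.23, SE 0.18) and Nelfb (-0.23, SE 0.19) had the smallest p in BR1-BR4, and Supt4a (-0.18, SE 0.15) and Nelfb (0.20, SE 0.20) in BR7-BR10. Of 19 elongation factors and polymerase II kinases tested, 0 passed by edgeR's test, with 1 at an unadjusted p under 0.05 in each set. Of all genes tested, 7.72% in BR1-BR4 and 3.78% in BR7-BR10 had such a p. The smallest p were those of Ctr9 (-0.58, SE 0.26) and Leo1 (-0.52, SE 0.26), subunits of the PAF complex that were lower in 4 of 4 mice of BR1-BR4 (6.86% of all genes were), and of Wdr61 (-0.29, SE 0.14), another of its subunits, and Ctdp1 (0.75, SE 0.43) in BR7-BR10.

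The listed genes of RNA polymerase III, which makes 7SK, and of its initiation and promoter factors also gave 0 calls. Some, such as the TFIIIC gene Gtf3c6, serve other promoter types than that of Rn7sk, and Maf1 encodes a repressor. Of 29 genes tested in BR1-BR4, 2 higher and 2 lower had an unadjusted p under 0.05, and of 28 in BR7-BR10 none had. Of all genes tested, 7.72% and 3.78% had such a p. Brf2, the initiation factor of the promoter type that Rn7sk has, was at 7.49 ± 2.27 CPM untreated and 15.3 ± 4.89 CPM with Bch in BR1-BR4 (SD, n = 4 each). All 4 mice were higher, as in 8.22% of all genes tested, and the log2 fold change was 1.09 (SE 0.34, adjusted p = 0.259, edgeR's test), the smallest p of this list. Polr1c, a subunit shared by polymerases I and III, had 0.29 (SE 0.12, adjusted p = 0.510). In BR7-BR10 the smallest p were those of Snapc5 (-0.25, SE 0.16), a subunit of the snRNA promoter complex, and Pou2f1 (0.60, SE 0.40), which binds the distal element of such promoters.

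Of the 3 other short structural RNAs tested between the untreated sets, 1 passed, as did 1.64% of all genes tested. This was Rpph1, the RNA of RNase P, at 2.55 ± 3.08 CPM in BR1-BR4 and 9.05 ± 4.53 CPM in BR7-BR10 (SD, n = 4 each), a log2 difference of 2.32 (SE 0.61, adjusted p = 0.0441, edgeR's test) that rests on 1 to 29 UMIs per sum and passed under 5 of 13 alternatives. Snord118, the U8 small nucleolar RNA, is outside that list and is one of the short RNAs added for their annotated type and a mean of at least 5 CPM. It was at 28.5, 21.1, 17.6 and 16.9 CPM in untreated BR1, BR2, BR3 and BR4, and at 108, 84.1, 52.7 and 44.2 CPM in BR7, BR8, BR9 and BR10. The sets of Snord118 did not overlap (4.57% of genes tested were higher without overlap), the log2 difference was 1.70 (SE 0.27, adjusted p = 0.000891, edgeR's test), and it passed under 15 of 15 alternatives. The untreated means of Rn7sk, 168 and 134 CPM, had overlapping values.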

How the data were processed

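Colonoid cells of 8 mice were profiled by oligo-dT primed RNA sequencing with UMIs. The authors deposited UMI counts per gene without normalization, for which the Drop-seq pipeline was run against GRCm38 and the GENCODE M25 annotation. The labels name GRCh38 as the build. Of the genes, 1520 are blank in all TR2 columns and were read as 0. TR1 and TR2 were summed. Genes that passed filterByExpr were tested with edgeR 4.0.16 in R 4.3.3 (TMM, robust quasi-likelihood fits, mouse as block) at a Benjamini-Hochberg threshold of 0.05 over all genes tested, in BR1-BR4 and BR7-BR10 separately, as an interaction over 16 sums, and without a block between untreated sets. Standard errors and 95% intervals come from these fits. For ratios within a mouse the prior count was 2.

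At 3 UMIs, the 95% limit of a count of 0 was 0.741 in the deepest and 5.38 in the shallowest sum, in CPM of all UMIs without the TMM factor that the printed levels carry, for counting error only.

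Pairs are cells of the same mouse by the labels. The correlation of their deviations from group means over 10280 genes was 0.244, 0.0331, 0.0615 and 0.0837 in BR1, BR2, BR3 and BR4, and 0.0710, 0.151, 0.00310 and -0.0203 in BR7, BR8, BR9 and BR10.

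Positions and sequence came from GENCODE M21 of GRCm38. The members and lists were chosen with earlier results of these data known. Named genes were the members, every gene of a list past the threshold, the 2 with the smallest p per list and set, the 5 most like Rn7sk, and short RNAs with at least 5 CPM. The result of 1 gene that this rule selects is not reported here. Steps were tested on simulated data. Alternatives covered normalization, the filter, DESeq2 1.42.0, TR1 or TR2 alone, ribosomal and mitochondrial genes, the block, all 8 mice in one fit and each mouse left out. Adding the counts of genes that share sequence with Rn7sk was chosen after seeing the data.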

Additional observations from a re-analysis of the deposited data

Results flagged for a closer look

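Of 36 groups of 4 mice, 3 held a value far from the other 3 for its group's range, where chance alone flags about 1 in 20 groups. Rn7sk in Bch-treated BR7 was at 1114 CPM, against 137 to 174 CPM in the other treated mice of its set. Larp7 in untreated BR3 was at 30.0 CPM, against 57.9 to 60.7 CPM, and Cdk9 in untreated BR3 was at 187 CPM, against 103 to 116 CPM. Untreated BR3 was the shallowest of the 16 sums, with 557512 UMIs, 17 of them from Larp7 and 106 from Cdk9, and the part of its depth in these values was not tested.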

How the results depend on the processing

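The fit of all 8 mice together gives 1 pooled change over both sets, which was 0.86 for Rn7sk. The change of Rn7sk in BR1-BR4 was 0.63 without the mouse as a block. The call on which it was chosen was absent in both fits. Leaving out each mouse gave 0.53 to 0.75, and the call was absent without BR1 or without BR2. DESeq2 gave no adjusted p for it. The genes called in BR1-BR4 numbered 1 with total UMIs only, 88 without the filter, 15 by DESeq2, 9 with TR1 alone, 0 without the block, 0 for the pooled change of all 8 mice, and 0 to 19 with a mouse left out. In BR7-BR10 they numbered 0 to 4 with a mouse left out, and the change of Rn7sk stayed above 0, at 0.52 to 1.70. For the difference between sets, 1 gene was called without the filter, and Rn7sk ran from -0.11 (without BR7) to 1.10. Between untreated sets, 234 genes were called without the filter and 74 to 210 with a mouse left out. Counts with the genes that share its sequence added gave Rn7sk 0.62 and 1.12.

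The partners passed in 0 of 406 alternatives and differed in sign from the reported value in 44, pooled changes of all 8 mice included. The pooled change was -0.041 for Aff4 (opposite to BR1-BR4), and -0.072 for Cdk9 and 0.15 for Hexim1 (opposite to BR7-BR10). In BR1-BR4, Aff4 was -0.016 with TR1 alone, and Mepce 0.0065 with TR2 alone. In BR7-BR10, Mepce was 0.019 with TR1 alone, and Hexim1 0.15 with TR2 alone and 0.037 without the block. For the difference between sets, Larp7 was 0.036 with total UMIs, 0.11 with TR1 alone and 0.066 without the block, Mepce -0.16 with TR2 alone and -0.095 without the block, Ccnt1 0.13 with TR1 alone and Ccnt2 0.17 with TR2 alone. Between untreated sets, Ccnt2 was -0.014 with total UMIs and -0.018 by DESeq2, and Mepce 0.060 with TR2 alone.

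With a mouse left out, the values that crossed 0 ran, in BR1-BR4, from -0.064 to 0.24 for Aff4 and -0.58 to 0.095 for Ccnt2. In BR7-BR10 they ran from -0.28 to 0.12 for Hexim1, -0.39 to 0.026 for Larp7 and -0.28 to 0.061 for Mepce. For the difference between sets they ran from -0.38 to 0.12 for Ccnt1, -0.49 to 0.19 for Ccnt2, -0.15 to 0.27 for Larp7 and -0.12 to 0.20 for Mepce. Those with Bch that kept their sign ran, in BR1-BR4, from -0.50 to -0.031 for Ccnt1, -0.37 to -0.060 for Cdk9, 0.26 to 0.62 for Hexim1, -0.35 to -0.14 for Larp7 and -0.22 to -0.069 for Mepce, and in BR7-BR10 from -0.23 to -0.024 for Aff4, -0.59 to -0.24 for Ccnt1, -0.63 to -0.30 for Ccnt2 and 0.017 to 0.11 for Cdk9. Between untreated sets the values that crossed 0 ran from -0.053 to 0.55 for Aff4, -0.33 to 0.42 for Ccnt2, -0.22 to 0.037 for Larp7 and -0.39 to 0.066 for Mepce. The cause was not tested. Depth limits Hexim2, with 1 to 15 UMIs per sum, most.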
